A study of Mus musculus with 32 samples.

Results

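Wild-type (WT) embryos collected at the same embryonic day were not all equally advanced, so Commd10Null embryos of E8.5 were set against the WT embryos of E8.5 that had progressed least. *Sox10* (ENSMUSG00000033006, minus strand of chromosome 15, 79154908 to 79165240 in GRCm38), a transcription factor gene that is switched on in the neural crest, served as the clock. The 3 Commd10Null libraries of E8.5 were compared with the 3 of 10 WT E8.5 libraries whose raw *Sox10* count was under 10, which makes 6 of the 32 libraries of the series. The WT libraries, chosen by this raw count, were replicates 6, 8 and 9, with 0, 4 and 3 *Sox10* counts, and the 3 Commd10Null libraries had none. The count nearest to the limit inside it was 4 in WT replicate 8, and the nearest outside it was 27 in WT replicate 7. Because *Sox10* chose the libraries, its own level is given as a description, and no p from this comparison is given for it or for genes that followed it among the 10 WT libraries, although counts of genes include the latter.

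Messenger RNA came from whole mouse embryos freed from the yolk sac. Commd10Null embryos are homozygous for the *Vav1-iCre* transgene, which sits in an intron of *Commd10*. They and the WT embryos came from crosses of heterozygous parents. The *Vav1* promoter drives iCre in blood cells, and only the Commd10Null embryos compared here carry the cassette. Neither labels nor methods say whether a library holds 1 embryo, from which litter or of which sex, so p-values measure the spread between libraries, which may be partly technical. In whole embryos, fewer cells of a type and less RNA per cell cannot be told apart.

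COMMD10 belongs to a family of proteins that share a COMM domain and work with the CCC and Retriever complexes, which recycle membrane proteins from endosomes. At this age the mouse embryo closes its neural folds, sheds the first neural crest cells, adds somites from the tailbud and starts its heart and blood circulation. The yolk sac around it is lined by visceral endoderm and makes the first red cells. Outside the yolk sac lie the trophoblast and the maternal decidua.

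Each library held between 7346301 and 8583012 counts at E8.5. Mitochondrial genes took 2.17 to 2.85% of the counts in Commd10Null, 1.55 to 3.15% in the least advanced WT and 1.22 to 2.21% in the other 7 WT libraries. The most abundant identifier, which has no symbol in the tables used, took 18.8 to 22.8%, 15.7 to 18.9% and 15.0 to 19.8%. Levels are given as CPM, counts scaled to a common depth and normalised between libraries, and always in the order of replicates 1, 2 and 3 for Commd10Null and of replicates 6, 8 and 9 for WT. The sex-linked gene *Xist* was at 52.8, 3.045 and 53.7 CPM in Commd10Null and at 0.27, 105 and 109 CPM in the least advanced WT. *Ddx3y*, another sex-linked gene, was at 0, 63.3 and 0 CPM and at 57.7, 0 and 0.13 CPM. Both groups thus held libraries high in *Xist* and a library high in *Ddx3y*. Fold changes are Commd10Null over WT on the log2 scale. A gene passed at an adjusted p of 0.05 or less by the quasi-likelihood test of edgeR, and a differentially expressed gene (DEG) was, in addition, changed by 1 or more on the log2 scale.

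By genes other than *Sox10*, the Commd10Null libraries overlapped with the least advanced WT libraries on a stage score, but not in each of its components. The score was built from the 200 rising and the 200 falling genes with the smallest p between the 7 other WT E8.5 libraries and the 9 WT E9.5 libraries, none of which enters the comparison. It was −2.40, −2.10 and −2.49 in Commd10Null and −2.29, −2.19 and −2.17 in the least advanced WT, so the groups overlapped. The difference was −0.11 (exact permutation test, two-sided, p = 0.4), and since 3 libraries against 3 cannot go below 0.1, this test could not show a difference. The mean log2 CPM of the 200 rising genes was 4.22, 4.40 and 3.97 in Commd10Null and 4.09, 4.10 and 4.17 in the least advanced WT, again with overlap. That of the 200 falling genes was 6.62, 6.51 and 6.46 against 6.38, 6.29 and 6.34, so that on these genes Commd10Null lay above all 3, and above the other 7 WT libraries as well. All 6 lay below the 7 other WT E8.5 libraries, which ran from −1.863 to −1.003, and far below the WT E9.5 libraries at 1.78 to 2.58. Against all 10 WT libraries the difference was −0.68 (exact permutation test, two-sided, p = 0.028).

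**Figure D1:**
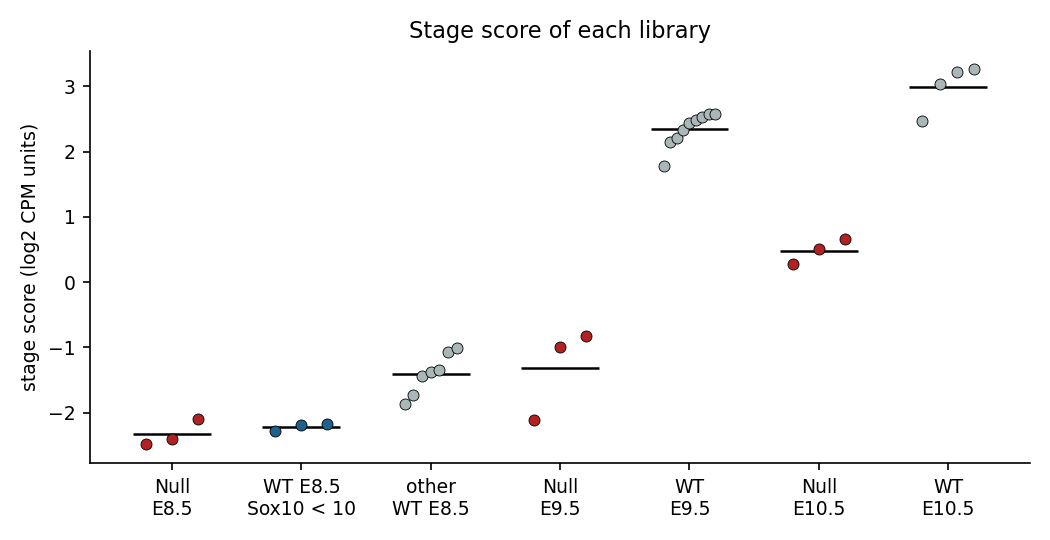
Stage score (mean log2 CPM of genes that rise with age minus that of genes that fall) of each of the 32 libraries, where each point is a library and the line is the group mean. Commd10Null E8.5 libraries (−2.49 to −2.10) overlap with the 3 WT E8.5 libraries of low *Sox10* (−2.29 to −2.17) and lie below the other WT E8.5 libraries (−1.863 to −1.003).

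Against the least advanced WT, most genes that passed were higher in Commd10Null embryos. Of 12671 genes tested, 161 passed (1.27%), of which 130 rose (1.03%) and 31 fell (0.245%). There were 105 DEGs (0.829%), of which 93 were higher (0.734%) and 12 lower (0.0947%). Against all 10 WT libraries, which include these 3, 6.73% of 13799 genes rose and 6.86% fell, and 444 (3.22%) were DEGs higher and 267 (1.93%) DEGs lower in Commd10Null. Of the 267 lower ones, 204 could be tested against the least advanced WT, where 9 were DEGs, and their median log2 fold change was −0.97 in place of −1.43. Of the 444 higher ones, 437 could be tested and 83 were DEGs, with medians of 1.18 and 1.54. A total of 108 (52.9%) of the 204 and 124 (28.4%) of the 437 followed *Sox10* among the WT libraries, defined as a Spearman rho of at least 0.6 in size over the 10 libraries, where 20.0% of all genes tested did.

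The list of DEGs leaned on single libraries. Without Commd10Null replicate 1 there were 20 DEGs, without WT replicate 6 there were 34 and without WT replicate 8 there were 42, while each of the 105 genes kept its sign in every one of these fits. The gene passed in all 6 fits that left out 1 library for 15 of the 105 DEGs, and in none for 8. Of the 93 higher DEGs, 85 also passed in the same direction against all 10 WT libraries and 82 had every Commd10Null library above all 10, where 5.93% of genes tested did. Of the 12 lower ones, these were 10 and 10, with 4.56% of genes tested lying below. The 10 WT libraries include the 3 of this comparison, and all 93 and all 12 DEGs already lay beyond those 3. Among the genes tested, 1348 lay above the 3 and 751 above all 10, while 1319 and 578 lay below. These counts of DEGs beyond all 10 are therefore no independent support. The filter on low counts asked for 3 libraries at its minimum, and in 16 (17.2%) of the 93 higher DEGs no WT library reached it, as in 81 (0.639%) of all genes tested. Such a gene could enter the test only by being high in Commd10Null, so its p is no independent support. Among the genes described here this holds for *Lgals3*, *Sprr2h*, *Nccrp1*, *Gzmc*, *Gzmd*, *Padi2*, *Ly6c1*, *Lgals9*, *Cyp11a1*, *Tent5c* and *Anxa8*. In *Mgp*, *Erv3*, *S100a4* and *Cebpb* 1 WT library reached it.

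**Figure D2:**
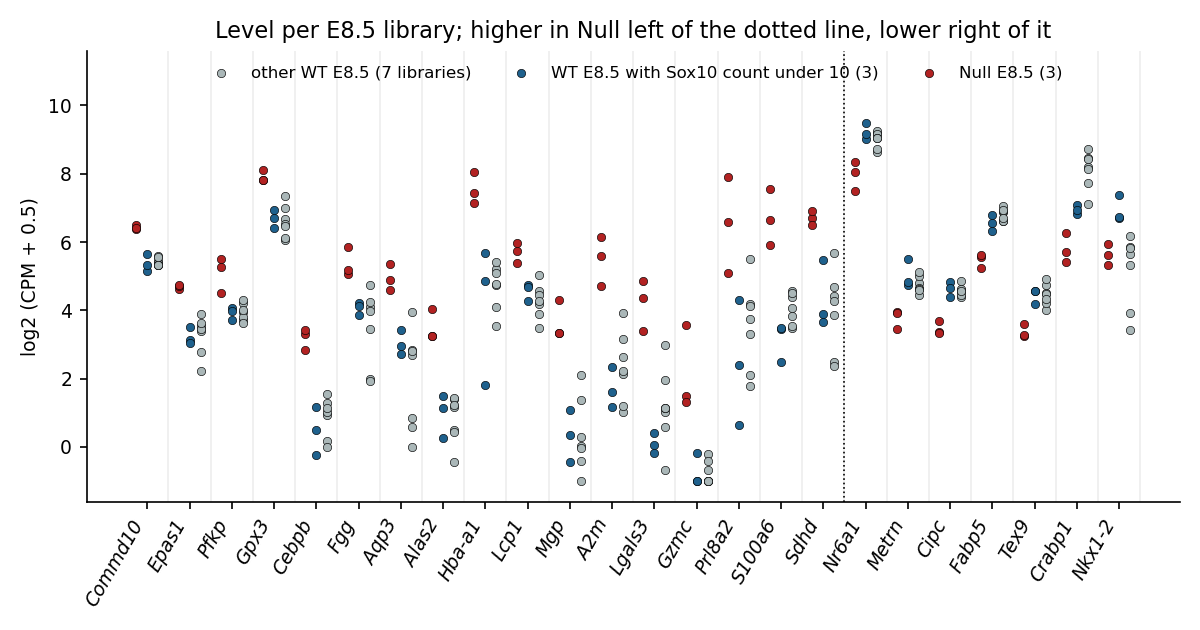
Levels of 24 genes as log2 (CPM + 0.5) in the 13 E8.5 libraries, 1 point per library, with Commd10Null in red, the 3 least advanced WT in blue and the 7 other WT in grey. In each gene the Commd10Null points lie apart from the blue points, while for *Crabp1*, *Nkx1-2* and *Sdhd* the grey points spread over a wide range.

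*Commd10* itself (ENSMUSG00000042705, plus strand of chromosome 18) was higher in Commd10Null embryos. It was at 82.4, 89.3 and 85.1 CPM in Commd10Null and at 49.4, 35.4 and 39.3 CPM in the least advanced WT, and the other WT libraries lay between 39.8 and 47.4 CPM with a median of 41.6. The log2 fold change was 1.06 (SE 0.16, adjusted p = 0.0126), and the call was lost without Commd10Null replicate 1 (adjusted p = 0.0536, over all alternatives 2.2e-07 to 0.0536). The libraries were made from the 3′ end of transcripts, and the transgene lies upstream of the last exons, so this count checks neither the genotype nor the loss of the protein. *Vps26a*, which encodes a subunit of the retromer, a sorting complex of the same endosomes, rose from 67.5, 59.7 and 48.5 to 95.7, 91.2 and 93.0 CPM (log2 fold change 0.68, SE 0.15, adjusted p = 0.0492). Its call did not hold in any fit that left out 1 library (adjusted p = 0.0721 to 0.196, over all alternatives 0.00202 to 0.196). Of 23 genes tested among COMMD proteins and their CCC, Retriever and WASH partners, 2 rose and 0 fell, with a median of 0.21 beside 0.01 over all genes tested.

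Of the 12 lower DEGs, 7 did not follow *Sox10* among WT embryos. *Nr6a1* (ENSMUSG00000063972, minus strand of chromosome 2, 38723370 to 38927688 in GRCm38), a nuclear receptor gene of the early embryo and germ line, was at 266, 325 and 178 CPM in Commd10Null and at 518, 719 and 568.4 CPM in the least advanced WT. Its log2 fold change was −1.22 (SE 0.19, adjusted p = 0.0156), and the other 7 WT libraries lay at 396 to 613 CPM, again above all Commd10Null libraries. The gene falls with age in WT embryos, with a log2 change of −2.05 from the 7 other WT E8.5 to the WT E9.5 libraries. At E9.5 and E10.5 it was higher in Commd10Null embryos, by 0.77 and 3.06 (adjusted p = 0.00382 and 2.26e-08), so its direction against WT was the other way at the later days. The difference between the ages was not tested.

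*Fabp5* (chromosome 3, 10012548 to 10016607), a fatty acid binding protein gene, and *Metrn* (chromosome 17, 25793221 to 25797136), which encodes meteorin, a secreted factor of neural progenitors, were lower at all 3 ages. *Fabp5* was at 37.5, 46.8 and 48.3 CPM in Commd10Null and at 111, 78.8 and 94.6 CPM in the least advanced WT (log2 fold change −1.09, SE 0.17, adjusted p = 0.0131), with −1.73 on the first and −0.97 on the second of the later days. *Metrn* was at 14.9, 14.7 and 10.4 CPM against 26.5, 27.8 and 44.8 CPM (log2 fold change −1.29, SE 0.26, adjusted p = 0.034), with −2.24 and −1.32 on those days. The 7 other WT libraries, at 97.5 to 133 CPM of *Fabp5* and 21.2 to 34.0 CPM of *Metrn*, were again above every Commd10Null library. Both genes were higher in older WT embryos. The WT E9.5 libraries, scaled within that age, were at 154.5 to 184.5 CPM of *Fabp5* and 74.5 to 104 CPM of *Metrn*. The part of a delay in the lower levels on the later days was not tested. For *Fabp5* the rank correlation with *Sox10* (rho 0.59) was just under the limit.

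*Cipc*, a repressor of the circadian CLOCK protein, was at 9.83, 12.3 and 9.54 CPM in Commd10Null and at 28.0, 24.7 and 20.5 CPM in the least advanced WT (log2 fold change −1.20, SE 0.23, adjusted p = 0.0316). *Tmod2*, a tropomodulin gene that caps actin filaments, *Tex9* and *D130058E05Rik* had log2 fold changes of −1.11, −1.10 and −1.41 (adjusted p = 0.0378, 0.0477 and 0.0492). In all 7 of these genes every Commd10Null library lay below all 10 WT libraries. The calls were fragile. *Tmod2* and *D130058E05Rik* did not pass in any fit that left out 1 library (0.0567 to 0.159 and 0.0687 to 0.145), and *Metrn*, *Cipc* and *Tex9* passed in 1 of 6. *Nr6a1* was lost without WT replicate 8 or Commd10Null replicate 1 and *Fabp5* without WT replicate 6 or Commd10Null replicate 1 (adjusted p = 0.0506 and 0.0841 for the first, 0.0614 and 0.0841 for the second). Over the 6 fits *Metrn* ranged from 0.0495 to 0.121, *Cipc* from 0.0433 to 0.136 and *Tex9* from 0.0482 to 0.192.

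Of the genes that followed *Sox10* among WT embryos, *Crabp1* and *Crabp2*, which encode cellular retinoic acid binding proteins of the neural tube and crest, were lower still than in the least advanced WT. *Crabp1* was at 42.0, 76.5 and 51.6 CPM in Commd10Null, at 136, 113 and 122 CPM in the least advanced WT and at 137 to 423 CPM (median 293) in the others. *Crabp2* was at 47.0, 38.6 and 24.5 CPM, at 83.5, 68.8 and 96.7 CPM and at 109 to 184 CPM (median 159). Both ranked in the same order, Commd10Null lowest, the 3 least advanced WT next and the other WT highest, without overlap between neighbours. *Ccdc18* and *Nkx1-2*, a homeobox gene of the tailbud, had the opposite relation to *Sox10*. *Nkx1-2* was at 60.5, 48.5 and 39.8 CPM in Commd10Null, at 105, 164 and 105 CPM in the least advanced WT and at 10.3 to 71.6 CPM in the others, so that Commd10Null lay within the range of the more advanced WT libraries.

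Among the genes that rose furthest were *Lgals3*, *A2m* and *Mgp*. *Lgals3* (chromosome 14, 47367751 to 47386160), which encodes galectin-3, was at 9.96, 19.9 and 28.6 CPM in Commd10Null and at 0.54, 0.82 and 0.39 CPM in the least advanced WT (log2 fold change 5.01, SE 0.50, adjusted p = 0.00121). *A2m* (chromosome 6, 121635376 to 121679227), a protease inhibitor gene of serum and decidua, was at 25.5, 47.5 and 70.0 CPM against 2.57, 1.76 and 4.57 CPM (log2 fold change 4.02, SE 0.41, adjusted p = 0.00121). *Mgp* (chromosome 6, 136872435 to 136875823), which encodes matrix Gla protein, an inhibitor of calcification, was at 9.70, 9.62 and 19.1 CPM against 1.62, 0.23 and 0.78 CPM (log2 fold change 3.87, SE 0.57, adjusted p = 0.0126). The lowest Commd10Null library was above the highest of all 10 WT libraries in each, which was 7.497, 14.7 and 3.82 CPM. All 3 calls held in every fit that left out 1 library. *Lgals3* entered the test through Commd10Null alone, so for it neither the p nor these fits are independent support. *Erv3*, an endogenous retroviral gene, was at 9.45, 20.5 and 21.5 CPM against 1.62, 0 and 0.13 CPM and passed in all 6 of those fits too (log2 fold change 4.90, SE 0.76, adjusted p = 0.0131).

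*Sprr2h*, *Nccrp1*, *Gzmc* and *Gzmd* entered the test through Commd10Null alone. *Sprr2h*, a gene of the cornified epithelial envelope, had 127 counts in Commd10Null and none in the least advanced WT libraries. It was at least 43.5-fold higher if the WT group is set to a floor of 3 counts in total (adjusted p = 0.0178, and 0.0524 without WT replicate 6, over all alternatives 2.86e-09 to 0.0524). *Nccrp1* had 157 counts against 2, a ratio of 80.7 (95% counting interval 22.0 to 672, adjusted p = 0.0126). *Gzmc*, granzyme C of decidual natural killer cells, had 125 counts against 3, a ratio of 42.8 (95% counting interval 14.3 to 210, adjusted p = 0.048). These intervals cover counting error only. *Gzmc* was at 2.33, 11.3 and 2.00 CPM in Commd10Null and at no more than 0.39 CPM in any WT library of E8.5, but its call held in 1 of 6 fits that left out a library (adjusted p = 0.0415 to 0.164, over all alternatives 3.1e-06 to 0.164). *Gzmd*, a further granzyme, was at 3.49, 10.3 and 3.99 CPM against 0, 0 and 0.65 CPM (log2 fold change 4.71, SE 1.00, adjusted p = 0.0433) and passed in 2 of 6 (adjusted p = 0.0323 to 0.139).

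*Padi2*, *Ly6c1*, *S100a4* and *Lgals9* had log2 fold changes of 4.84, 4.78, 4.43 and 4.21 (adjusted p = 0.0367, 0.0184, 0.0215 and 0.0392), and all but *S100a4* entered the test through Commd10Null alone. *Padi2* passed in 2 of 6 fits that left out a library (adjusted p = 0.0409 to 0.113), *Lgals9* in 1 (0.0256 to 0.144), *Ly6c1* in all but those without WT replicate 6 or Commd10Null replicate 3 (0.0776 and 0.0501), and *S100a4* in all but those without WT replicate 6 or Commd10Null replicate 1 (0.0963 and 0.0526). *S100a4*, a calcium-binding protein gene of fibroblasts and leukocytes, was at 5.30, 14.4 and 17.2 CPM against 0.27, 0 and 1.44 CPM. *S100a6* and *Ctla2a*, named after their values were seen, shared the pattern at higher levels, with *S100a6* at 60.3, 100 and 186 CPM against 10.4, 5.15 and 10.6 CPM (log2 fold change 3.74, adjusted p = 0.00121). In *Lgals3*, *A2m*, *Ly6c1*, *S100a4*, *S100a6* and *Ctla2a* the highest Commd10Null library was replicate 3. Among genes that followed *Sox10*, *Cyp11a1*, which starts steroid synthesis, was at 4.40, 9.74 and 12.8 CPM in Commd10Null, at 0.81, 0 and 0 CPM in the least advanced WT and at 0.11 to 3.82 CPM in the others. *Gatm*, an enzyme gene of creatine synthesis that is strong in decidua, was at 21.4, 42.5 and 49.9 CPM, at 1.49, 1.64 and 3.91 CPM and at 2.45 to 6.68 CPM. *Tgm2*, transglutaminase 2, was at 42.6, 37.5 and 27.2 CPM, at 10.3, 12.1 and 11.0 CPM and at 15.1 to 26.5 CPM.

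The decidua and uterus list, to which *Gzmc*, *Gzmd* and *Erv3* belong, was higher in sum in Commd10Null. Of 15 members tested, 6 rose (*Prl8a2*, *Col1a1*, *Cryab*, *Gzmc*, *Gzmd* and *Erv3*, of which *Col1a1* is named after its value was seen) and 0 fell, with a median log2 fold change of 2.65 beside 0.01 over all genes tested. Of the 15, 5 had no WT library at the minimum of the filter and 7, *Cryab* among them, followed *Sox10*. Neither the count of 6 nor the median is therefore support for the list. *Cryab* was at 9.19, 42.4 and 77.5 CPM in Commd10Null and at 8.39, 4.10 and 8.22 CPM in the least advanced WT. The other WT libraries, at 23.9 to 55.1 CPM, overlapped with Commd10Null. *Prl8a2*, a prolactin family gene of decidual cells, was at 33.5, 95.5 and 239 CPM in Commd10Null and at 4.74, 1.05 and 19.1 CPM in the least advanced WT (log2 fold change 3.91, SE 0.78, adjusted p = 0.0345), but 1 of the 7 other WT libraries reached 44.5 CPM and overlapped with Commd10Null. Its call was lost without WT replicate 6 or 8 or Commd10Null replicate 1 or 3 (adjusted p = 0.142, 0.0895, 0.0536 and 0.0622). The 22 genes of the list summed to 238, 418 and 550 CPM in Commd10Null, to 93.1, 118 and 141 CPM in the least advanced WT and to 130 to 214 CPM in the others. None of the 22 was at 0 in all 6 libraries. The embryos were freed from the yolk sac before RNA was taken, and the part of maternal tissue in these levels was not tested.

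The summed level of leukocyte markers was higher in Commd10Null too. *Lcp1*, which encodes an actin-bundling protein of blood cells, rose from 26.3, 18.7 and 25.1 to 62.4, 41.0 and 52.7 CPM (log2 fold change 1.17, SE 0.21, adjusted p = 0.0207), and it was the one of 7 members tested to pass, while 0 fell. The call was lost without any of the 3 WT libraries or without Commd10Null replicate 1 (adjusted p = 0.0614 to 0.123). *S100a8*, a neutrophil gene, was at 3.75, 16.4 and 17.5 CPM against 1.49, 0 and 2.09 CPM and missed the threshold (log2 fold change 3.42, adjusted p = 0.0638). *Laptm5* was at 2.07, 1.10 and 3.85 CPM against 2.17, 0 and 0.65 CPM, with overlap (adjusted p = 0.566). *Fcer1g* entered the test through Commd10Null alone and missed the threshold (adjusted p = 0.1275). In 4 of the 7, *Fcer1g* among them, every Commd10Null library lay above the 3 WT libraries, where 10.6% of all genes tested did. For *Fcer1g* this was set by the filter, so the count of 4 is no independent support for the list. The 22 genes of the list summed to 86.3, 87.0 and 98.3 CPM in Commd10Null. In the least advanced WT the sums were 41.4, 26.1 and 39.7 CPM. *Lcp1* was the largest part of the sum in each of these libraries.

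**Figure D3:**
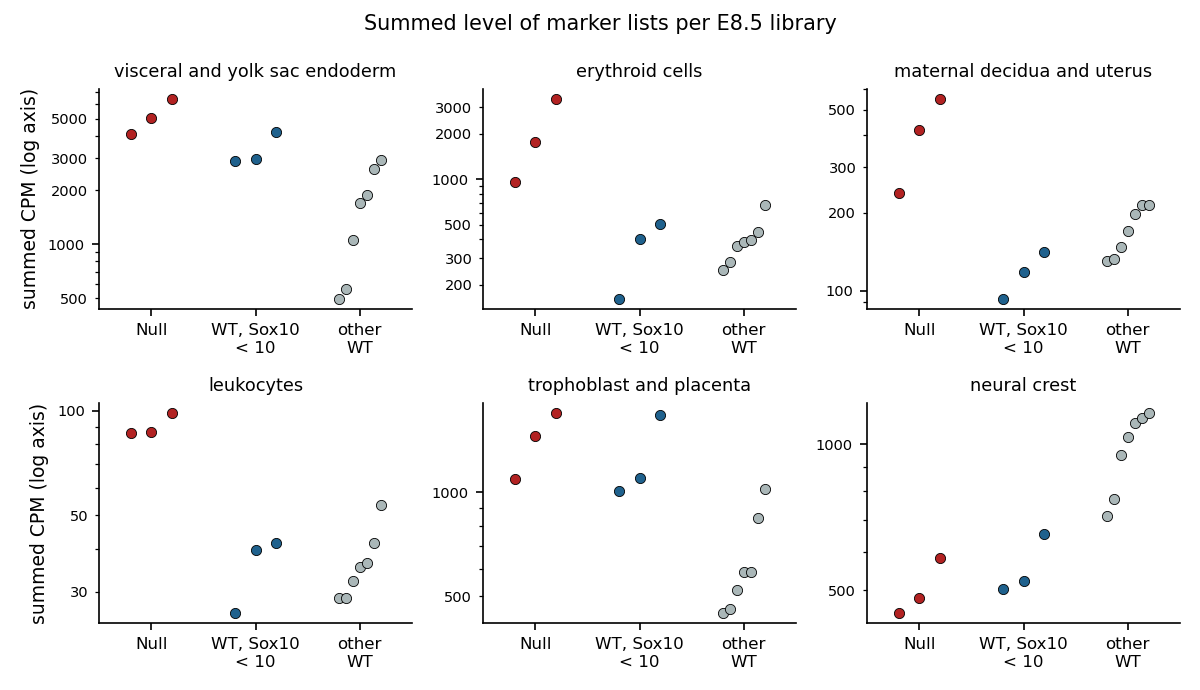
Summed CPM (log axis) of 6 marker lists in each of the 13 E8.5 libraries, 1 point per library, ordered by level within a group. Commd10Null lies above all WT libraries for decidua (238 to 550 against 93.1 to 214 CPM), leukocytes and erythroid cells, and overlaps with the least advanced WT libraries for yolk sac endoderm, trophoblast and neural crest.

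The visceral endoderm absorbs nutrients and secretes serum proteins as the later liver does, and 3 of its genes were higher in Commd10Null embryos, with modest folds. *Fgg* and *Fga*, which encode chains of fibrinogen, rose by 1.37 (SE 0.23, adjusted p = 0.0193) and 1.14 (SE 0.24, adjusted p = 0.0421) on the log2 scale. *Fgg* was at 56.8, 33.01 and 36.0 CPM in Commd10Null, at 18.1, 16.9 and 14.1 CPM in the least advanced WT and at 3.32 to 26.1 CPM in the others. *Amn*, a subunit of the receptor for vitamin B12, followed *Sox10* and was at 381, 254 and 310 CPM, at 196, 144 and 159 CPM and at 17.1 to 134 CPM. Of 24 members tested, 12 of which followed *Sox10*, 3 rose and 0 fell, with a median of 0.61. In either direction, 17 had an unadjusted p of 0.05 or less and 10 passed with DESeq2. Of all genes tested 15.7% and 4.14% did. The 25 genes of the list summed to 6431, 4091 and 5052 CPM in Commd10Null, to 4218, 2986 and 2891 CPM in the least advanced WT and to 497 to 2944 CPM in the others, so the sum in WT replicate 6 lay within the Commd10Null range. *Apoc2* was the one member at 0 in all 6 libraries. In the fit of all 13 E8.5 libraries with 3 groups the calls of *Fga* and *Fgg* were lost (adjusted p = 0.275 and 0.186, each the highest over its alternatives, which started at 0.00499 and 3.59e-07). When 1 library was left out, *Fga* passed only without Commd10Null replicate 2 and *Fgg* without Commd10Null replicate 2 or 3 (adjusted p = 0.0432 to 0.196 and 0.0229 to 0.103). *Aqp3*, an aquaporin gene named after its value was seen, was at 40.8, 23.6 and 29.4 CPM against 10.2, 6.09 and 7.31 CPM (log2 fold change 2.00, adjusted p = 0.0094, and 0.0526 without Commd10Null replicate 1, over all alternatives 8.91e-11 to 0.16). *Fabp1*, a fatty acid binding protein of gut and liver that followed *Sox10*, was at 38.7, 23.0 and 15.5 CPM against 9.88, 2.93 and 5.48 CPM.

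In the erythroid list 2 genes were higher at E8.5, both of which rise steeply as WT embryos grow older. *Hba-a1*, an adult-type alpha globin gene, was at 265, 171 and 141 CPM in Commd10Null, at 28.6, 3.04 and 50.4 CPM in the least advanced WT and at 11.2 to 42.5 CPM in the others (log2 fold change 2.83, SE 0.59, adjusted p = 0.0393). *Alas2*, the first enzyme of haem synthesis in red cells, was at 15.9, 9.01 and 8.97 CPM, at 2.30, 0.70 and 1.70 CPM and at 0.24 to 2.22 CPM (log2 fold change 2.86, SE 0.49, adjusted p = 0.0192). *Hba-a2*, a near-identical copy of *Hba-a1* whose reads may be shared with it, was at 157, 112 and 111 CPM against 26.0, 2.34 and 39.4 CPM and missed the threshold (adjusted p = 0.0553). Commd10Null lay above all 10 WT libraries in each of the 3 genes. Of 14 members tested, 6 of which followed *Sox10*, 2 rose and 0 fell, with a median of 2.33. In either direction, 12 had an unadjusted p of 0.05 or less and 3 passed with DESeq2. Of all genes tested 15.7% and 4.14% did. The 22 genes found in the table summed to 3395, 1764 and 961 CPM in Commd10Null. In the least advanced WT the sums were 399, 162 and 501 CPM. The sum was highest in Commd10Null replicate 1, and without that library neither call held (adjusted p = 0.196 for *Hba-a1* and 0.129 for *Alas2*, over all alternatives 3.11e-64 to 0.196 and 7.97e-07 to 0.129). *Hba-a1* was also lost without WT replicate 6 or Commd10Null replicate 2 (0.143 and 0.0513) and under the Wald test of DESeq2 (0.0800), and *Alas2* without WT replicate 8 or 9 (0.0556 and 0.0551). At E10.5 the direction was the other way, with log2 fold changes of −3.83 for *Hba-a1* and −2.26 for *Alas2*.

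Single genes of metabolism and stress were higher, while few members of their lists passed. *Gpx3* (chromosome 11, 54902453 to 54910377), a secreted glutathione peroxidase gene, was at 226, 226 and 274 CPM in Commd10Null, at 123, 104 and 84.2 CPM in the least advanced WT and at 66.8 to 163 CPM in the others (log2 fold change 1.23, adjusted p = 0.0045). This gene, named after its values were seen, changed by −0.40 on the log2 scale with age in WT embryos and was also higher in Commd10Null at E9.5 and E10.5, by 1.58 and 1.71. It passed in all 6 fits that left out 1 library. *Epas1* (chromosome 17, 86753700 to 86833410), which encodes the hypoxia-inducible factor HIF-2 alpha, was at 24.1, 25.5 and 26.2 CPM against 10.8, 8.32 and 7.83 CPM (log2 fold change 1.499, SE 0.23, adjusted p = 0.0131). *Pfkp*, a phosphofructokinase gene of glycolysis, was at 44.6, 38.1 and 22.1 CPM against 16.2, 12.5 and 15.3 CPM (log2 fold change 1.26, SE 0.26, adjusted p = 0.0393). Both lay above all 10 WT libraries, and both were higher on the later days, *Epas1* by 2.37 and 1.34 and *Pfkp* by 2.53 and 3.08. *Epas1* was lost without Commd10Null replicate 1 (adjusted p = 0.0536), and *Pfkp* held only without Commd10Null replicate 3 (adjusted p = 0.0167 to 0.196 over the 6 fits). Of 29 genes tested among glycolysis genes and HIF targets, 16 of which followed *Sox10*, 2 rose and 0 fell, with a median of 0.36. In either direction, 12 had an unadjusted p of 0.05 or less and 5 passed with DESeq2. Of all genes tested 15.7% and 4.14% did. *Slc16a3*, which encodes a lactate exporter and followed *Sox10*, was at 314, 330 and 262 CPM against 140, 156 and 259 CPM.

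*Cebpb*, a transcription factor gene of the stress and acute-phase response, was at 9.31, 6.70 and 10.3 CPM in Commd10Null and at 1.76, 0.35 and 0.91 CPM in the least advanced WT (log2 fold change 3.12, SE 0.56, adjusted p = 0.0216). Of 23 genes of the integrated stress and unfolded protein responses, 11 had an unadjusted p of 0.05 or less and 2 passed with DESeq2. The shares over all genes tested were 15.7% and 4.14%. By the test of edgeR *Cebpb* was the one of the 23 to rise and 0 fell, with a median of 0.29. The call was lost without WT replicate 8 or 9 or Commd10Null replicate 1 (adjusted p = 0.0692, 0.0719 and 0.121). Among 23 p53 targets and apoptosis genes 0 passed in either direction (3 did at an unadjusted p of 0.05 or less, and 2 by the Wald test of DESeq2), with a median of 0.09. The nearest were *Trp53inp1*, at 15.5, 12.6 and 18.1 CPM against 7.85, 5.15 and 4.57 CPM (adjusted p = 0.0513), and *Sesn2*, at 23.7, 17.3 and 17.2 CPM against 8.26, 9.96 and 9.26 CPM (adjusted p = 0.0555), and both lay above all 10 WT libraries.

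In the lysosome, where endosomal cargo is degraded, 3 genes were higher with small folds. *Ctsl*, cathepsin L, was at 1039, 685 and 935 CPM in Commd10Null, at 580, 431 and 435 CPM in the least advanced WT and at 179 to 463 CPM in the others (log2 fold change 0.89, SE 0.16, adjusted p = 0.0216). *Cd63*, a tetraspanin of late endosomes and lysosomes, was at 350, 263 and 318 CPM, at 210, 164 and 172 CPM and at 115 to 168 CPM (log2 fold change 0.78, SE 0.14, adjusted p = 0.0216). *Hexa*, a hexosaminidase subunit gene that followed *Sox10*, was at 63.3, 66.5 and 86.0 CPM against 44.7, 42.0 and 43.5 CPM. Of 27 members tested, 11 of which followed *Sox10*, 3 rose and 0 fell, with a median of 0.46. In either direction, 19 had an unadjusted p of 0.05 or less and 10 passed with DESeq2. Of all genes tested 15.7% and 4.14% did. Against all 10 WT libraries 19 rose and 1 fell, with a median of 0.72 (6.73% and 6.86% of all genes tested there). The summed visceral endoderm markers, whose cells are rich in lysosomes, moved in the same order of groups, and their part in these levels was not tested. The calls of *Ctsl* and *Cd63* were lost without WT replicate 8 or 9 or Commd10Null replicate 1 (adjusted p = 0.0902 to 0.129), and *Hexa* passed in none of the 6 fits that left out a library. *Scd2*, a stearoyl-CoA desaturase gene, was the one of 25 cholesterol and lipid synthesis genes to pass, and it fell, from 273, 349 and 293 to 204, 199 and 174 CPM (log2 fold change −0.65, SE 0.13, adjusted p = 0.0316). It passed in 1 of 6 fits that left out a library (adjusted p = 0.0495 to 0.139). *Smad6*, an inhibitor of BMP signalling, followed *Sox10* and was at 31.8, 41.7 and 46.9 CPM against 18.1, 20.9 and 23.8 CPM, and it also passed in none of the 6.

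Few neural genes passed against the least advanced WT. Since these WT libraries were chosen for low *Sox10*, and 10 of 14 neural crest genes and 11 of 23 neural plate and tube factors followed *Sox10*, the gap between the medians of the 2 comparisons is in part set by that choice. Of 14 neural crest genes tested, 0 rose and 1 fell (*Crabp1*), with a median log2 fold change of −0.12, where 6 fell against all 10 WT libraries with a median of −0.97. Of 23 neural plate and tube factors, 0 passed (4 at an unadjusted p of 0.05 or less and 1 with DESeq2) with a median of −0.23. Over all genes tested these shares were 15.7% and 4.14%. Against all 10 WT libraries 8 of the factors fell, with a median of −0.73. Of all genes tested there 6.86% fell, which is the share for these 8 and for the 6 neural crest genes. *Sox1*, a factor of the neural plate, was at 1.42, 4.99 and 2.14 CPM in Commd10Null, at 5.28, 2.93 and 21.5 CPM in the least advanced WT and at 28.3 to 50.4 CPM in the others. *Pax3*, of the dorsal neural tube, was at 1.42, 5.36 and 0.14 CPM, at 4.602, 6.44 and 11.3 CPM and at 16.7 to 30.4 CPM. In both genes Commd10Null overlapped with the least advanced WT, and neither overlapped with the others. *Gbx2*, of the hindbrain, had its highest levels in the least advanced WT, at 29.2, 21.7 and 7.69 CPM in Commd10Null, 46.4, 66.7 and 43.5 CPM in the least advanced WT and 16.0 to 32.0 CPM in the others.

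*Mdk* and *Ptn*, which encode the related growth factors midkine and pleiotrophin, both followed *Sox10*. *Mdk* was at 384, 480 and 420 CPM in Commd10Null, at 746, 706 and 778 CPM in the least advanced WT and at 871 to 1171 CPM in the others, with no overlap between neighbours. *Ptn* was at 11.1, 15.8 and 16.0 CPM, at 27.6, 15.2 and 46.7 CPM and at 106 to 273 CPM, so the lowest WT library of the 3 lay within the Commd10Null range. The difference between the 2 genes was not tested. *Grem1*, a BMP antagonist gene, had no count in Commd10Null and was at 0.95, 0 and 1.30 CPM in the least advanced WT and at 3.17 to 7.23 CPM in the others. *Wnt1*, of the dorsal midline, was at 0, 0.61 and 0 CPM, at 0.13, 0 and 0.65 CPM and at 6.12 to 17.6 CPM, and *Fzd3*, a Wnt receptor gene, at 14.6, 24.1 and 9.83 CPM, at 20.2, 34.1 and 32.4 CPM and at 50.6 to 94.0 CPM. Of 31 Wnt ligands, receptors and targets tested, 0 passed (5 unadjusted, 2 with DESeq2), with a median of −0.18. The unadjusted and DESeq2 shares over all genes tested were 15.7% and 4.14%.

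No gene of the somites and trunk mesoderm and none of the epiblast and streak passed, and 1 of the tailbud did. Of 13 somite and trunk mesoderm genes 0 passed (7 unadjusted, 2 with DESeq2), with a median of −0.82, and 6 of the 13 had every Commd10Null library below the 3 WT libraries, where 10.4% of all genes tested did. *Meox1*, a somite gene, was at 7.504, 11.2 and 0 CPM in Commd10Null and at 26.4, 28.2 and 34.6 CPM in the least advanced WT. *Tcf15*, of the early somite, was at 5.56, 9.502 and 3.13 CPM against 16.4, 14.2 and 14.7 CPM. Commd10Null replicate 3 was the lowest in both. Of 15 tailbud and presomitic mesoderm genes 1 fell (*Nkx1-2*), with a median of −0.70, and of 28 *Hox* genes 0 passed (6 unadjusted, 1 with DESeq2), with a median of −0.85. For the somite and *Hox* lists, the unadjusted and DESeq2 shares over all genes tested were 15.7% and 4.14%. *Cdx1*, of the tailbud, was at 124, 111 and 18.7 CPM against 235, 339 and 209 CPM.

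Commd10Null replicate 3 was the highest of the 6 libraries, and replicate 2 the lowest, for the summed epiblast and streak genes, which were at 722, 556 and 1832 CPM in Commd10Null and at 897, 664 and 877 CPM in the least advanced WT. *Eomes*, of the primitive streak, was at 10.7, 2.31 and 67.5 CPM in Commd10Null, at 5.01, 5.50 and 0.91 CPM in the least advanced WT and at 0 to 2.89 CPM in the others. *Utf1*, a chromatin gene of pluripotent cells, was at 15.9, 2.44 and 38.3 CPM, at 6.09, 2.69 and 6.13 CPM and at 0.61 to 1.98 CPM. In both genes the groups overlapped, and Commd10Null replicate 2 lay at or just below the level of the least advanced WT. Of 20 epiblast and primitive streak genes tested 0 passed (5 unadjusted, 1 with DESeq2), with a median of 0.74. The unadjusted and DESeq2 shares were 15.7% and 4.14% over all genes tested. Against all 10 WT libraries 5 rose, with a median of 1.49 over the list, where 6.73% of all genes tested rose. *Cldn6*, a claudin gene of embryonic epithelia that followed *Sox10*, was at 271, 203 and 254 CPM against 144, 122 and 153 CPM.

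Heart and blood vessel genes showed no member past the threshold. Of 17 heart muscle genes tested, 10 of which followed *Sox10*, 0 passed (3 unadjusted, 0 with DESeq2), with a median of 0.30 beside −0.79 against all 10 WT libraries. *Gata4*, of the early heart, was at 63.9, 60.4 and 64.2 CPM in Commd10Null and at 35.9, 37.1 and 54.0 CPM in the least advanced WT (log2 fold change 0.58, adjusted p = 0.137). *Hand1*, of heart and trophoblast, was at 111, 90.5 and 105 CPM against 73.9, 85.5 and 69.5 CPM. Of 18 endothelial genes 0 passed (6 unadjusted, 0 with DESeq2), with a median of 0.55, and of 10 trophoblast genes 0 passed (4 unadjusted, 1 with DESeq2), with a median of 0.47, while the trophoblast markers *Tpbpa*, *Prl2c2*, *Psg18* and *Ctsq* had no count in the 6 libraries. Beside these lists, the unadjusted and DESeq2 shares over all genes tested were 15.7% and 4.14%.

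*Lin28a*, *Lin28b* and *Hmga2*, which hold cells in an early developmental state, had lower levels in Commd10Null than in the least advanced WT. *Hmga2* was at 375, 631 and 440 CPM in Commd10Null, at 716, 916 and 814 CPM in the least advanced WT and at 924 to 1271 CPM in the others. *Lin28b* was at 35.7, 51.3 and 32.2 CPM, at 61.7, 71.1 and 67.6 CPM and at 76.8 to 121 CPM. *Lin28a* was at 477, 498 and 525.6 CPM against 659, 652 and 714 CPM, but the other WT libraries, at 468 to 660 CPM, overlapped with Commd10Null. All 3 genes followed *Sox10* among WT embryos. Of 14 genes of this group 0 passed (6 unadjusted, 4 with DESeq2), with a median of −0.17. Over all genes tested the unadjusted and DESeq2 shares were 15.7% and 4.14%.

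**Figure D4:**
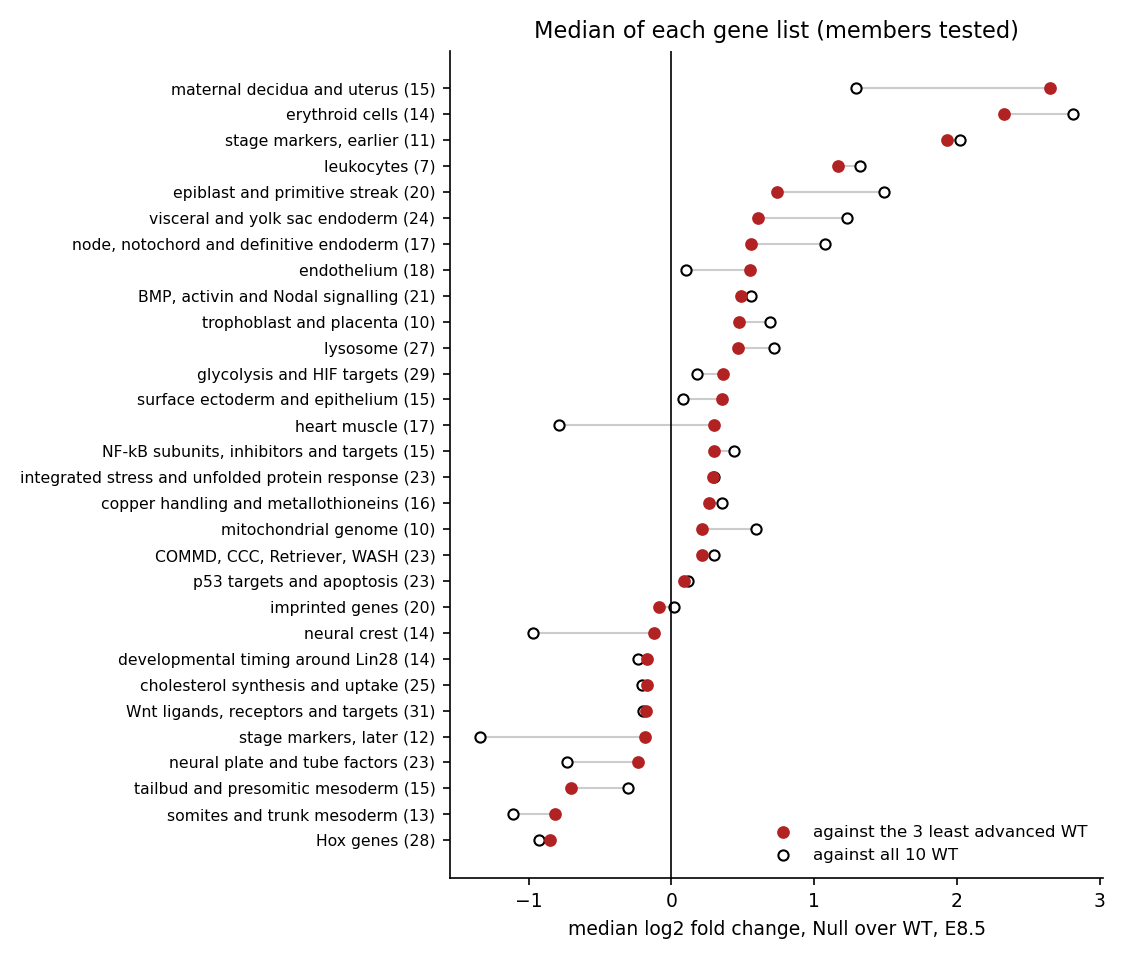
Median log2 fold change (Commd10Null over WT, E8.5) of 30 gene lists with the number of members tested in brackets, against the 3 least advanced WT libraries (filled) and all 10 WT libraries (open), which share libraries. The medians of neural crest genes (−0.12 and −0.97) and heart muscle genes (0.30 and −0.79) are lower against all 10, that of decidua markers, 5 of which entered the test through Commd10Null alone, is higher against the least advanced (2.65 and 1.29), and those of *Hox* genes (−0.85 and −0.92) lie close together.

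Of the genes that the study names, several had few or no counts in the 3 least advanced WT libraries. *Anxa8*, an annexin gene that entered the test through Commd10Null alone, had 67 counts against 1, a ratio of 68.9 (95% counting interval 11.9 to 2759, adjusted p = 0.0305), and was at 4.27, 2.31 and 2.14 CPM, with 0.14 CPM as the highest WT value of E8.5. Its call held in 1 of 6 fits that left out a library (adjusted p = 0.0482 to 0.191). *Anxa1* had 54 counts against none, at least 18.5-fold higher, but was at 0.39, 2.19 and 4.70 CPM. *Inhba*, the inhibin and activin beta A chain, had 46 counts against 2, a ratio of 23.6 (95% counting interval 6.18 to 201). No p was computed for *Anxa1* and *Inhba* in this comparison, because they did not pass the filter on low counts.

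The DEGs were set beside the change with age in WT embryos, taken from libraries outside the comparison. Of the 93 higher DEGs 70 could be placed on that axis. A total of 17 (24.3%) changed by less than 0.5 on the log2 scale between E8.5 and E9.5, where 72.7% of all genes tested did, 30 (42.9%) rose with age, where 14.0% did, and 23 (32.9%) fell with age, where 13.3% did. Of the 12 lower DEGs 5 changed by less than 0.5, 4 rose and 3 fell. The higher DEGs thus held genes of both directions, with *Hba-a1* (5.31 from E8.5 to E9.5) and *Alas2* (4.43) on one side and *A2m* (−2.62) and *Fgg* (−4.30) on the other.

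At E9.5, in other libraries, 72 of the 93 higher DEGs were tested and 39 (54.2%) were higher in Commd10Null, where 21.8% of genes tested at both ages were, and 3 were lower. Without Commd10Null E9.5 replicate 3 these were 30 of 73 (41.1%), where 20.3% of genes were, and 6. At E10.5, 24 of 69 (34.8%) were higher, where 22.0% were, and 18 (26.1%) were lower, where 19.9% were. Of the 12 lower DEGs 7 were lower at E9.5 (58.3%, where 16.0% were) and 5 at E10.5 (41.7%, where 19.9% were), while 2 were higher at E9.5 and 2 at E10.5. Over all genes tested at E9.5, 20.2% were higher and 17.4% lower in Commd10Null (37.6% together, with 9.35% as DEGs higher and 7.67% as DEGs lower). At E10.5 these were 20.9% and 21.4%, with 6.88% and 8.44% as DEGs. A total of 17 DEGs changed by less than 0.5 with age, did not follow *Sox10*, lay beyond all 10 WT libraries and passed against them, 13 of them higher and 4 lower. Of the 13, 5 were also higher at both later ages, namely *Commd10*, *Gpx3*, *Ndrg1*, *Ank* and *Serpinb6b*, and of the 4 *Fabp5* was lower at both. *Fabp5* met the limits only narrowly, as it rose by 0.498 with age and had a rho of 0.588 with *Sox10*. No share over all genes is given for these counts, which are a description only. *Ndrg1*, a gene induced by hypoxia and differentiation, was at 18.8, 18.1 and 38.5 CPM in Commd10Null and at 7.71, 6.33 and 10.2 CPM in the least advanced WT (log2 fold change 1.64, adjusted p = 0.0345), and had log2 fold changes of 3.13 at E9.5 and 1.61 at E10.5, but at E8.5 it passed in 1 of 6 fits that left out a library (adjusted p = 0.0325 to 0.139). These genes were singled out after their values were seen.

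Some genes that followed *Sox10* stood in Commd10Null at the level of the more advanced WT embryos, and they are named after their values were seen. *Igf1*, insulin-like growth factor 1, was at 11.0, 17.9 and 8.41 CPM in Commd10Null, at 1.76, 2.23 and 2.61 CPM in the least advanced WT and at 7.79 to 22.2 CPM in the others. *Cavin1*, a coat protein gene of caveolae, was at 23.3, 26.1 and 22.2 CPM, at 5.41, 5.74 and 6.39 CPM and at 11.7 to 26.6 CPM. In both genes Commd10Null lay above the least advanced WT and within the range of the others. *Runx1*, a factor of blood stem cell formation that runs against *Sox10* (rho −0.77), was at 21.5, 22.9 and 26.2 CPM, at 11.8, 8.67 and 12.7 CPM and at 1.11 to 5.23 CPM, with the 3 groups apart.

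A set of the higher DEGs varied widely among WT embryos as well. *Sdhd*, a subunit gene of mitochondrial succinate dehydrogenase, is one of the 93, and 15 others (16.1%) followed it among the 10 WT libraries (Pearson r of log2 CPM of at least 0.8), where 1.23% of the other genes tested did. The set of 16 was chosen after its values were seen. *Sdhd* was at 104, 89.7 and 120 CPM in Commd10Null, at 14.2, 12.1 and 44.2 CPM in the least advanced WT and at 4.67 to 50.3 CPM in the others (log2 fold change 2.17, adjusted p = 0.0195), and the call was lost without WT replicate 6 or 8 or Commd10Null replicate 1 (0.0887, 0.0584 and 0.104). *Mrps28*, a mitochondrial ribosomal protein gene, was at 58.9, 49.8 and 67.7 CPM against 11.4, 12.9 and 29.1 CPM, and *mt-Nd3*, of the mitochondrial genome, at 104.9, 86.4 and 112 CPM against 22.1, 28.1 and 52.8 CPM. *Acat1* and *Rnf5* and also pseudogenes such as *Rps6-ps4* and *Rpl17-ps3* belong to the set, and in every one of the 16 genes the Commd10Null libraries of E8.5 lay above all 10 WT libraries. At E9.5 the 3 Commd10Null libraries differed widely in these genes. *Sdhd* was at 0, 72.8 and 107 CPM in the 3 Commd10Null libraries and at 20.7 to 83.1 CPM in WT, and replicate 1 was the lowest of the 3 Commd10Null libraries in all 16 genes. A property of the libraries that moves with these genes was not tested. Of the other 9 members tested of the list of mitochondrial genome genes, 0 passed (0 unadjusted, 0 with DESeq2), and the median of all 10 was 0.21.

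**Figure D5:**
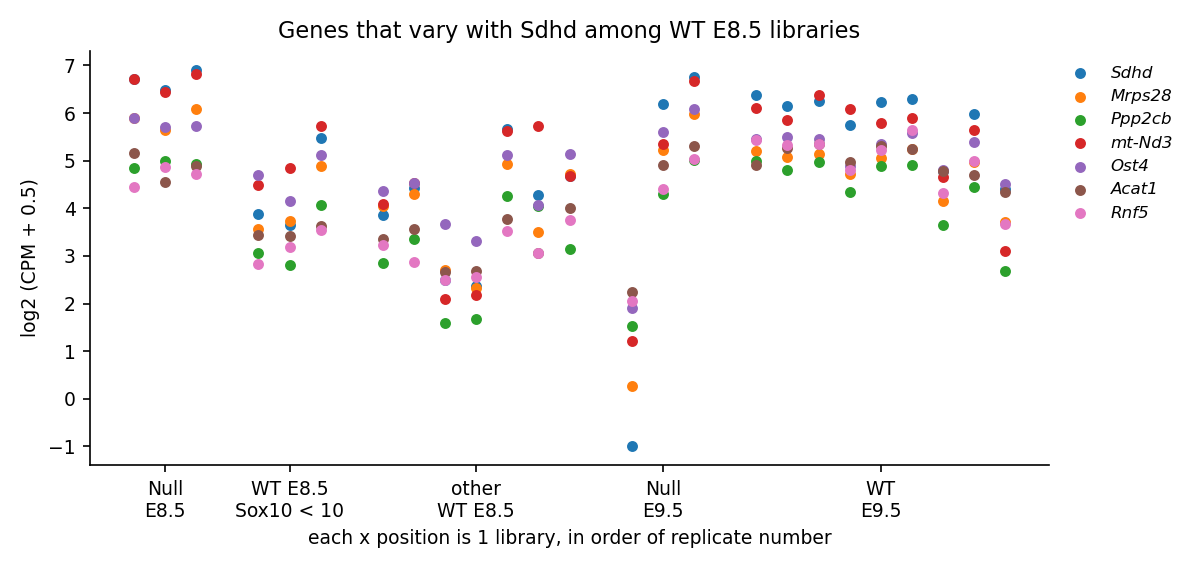
Levels of *Sdhd* and 6 of the 15 higher DEGs that vary with it, as log2 (CPM + 0.5), where each x position is a library of E8.5 or E9.5 and each colour is a gene. The genes move together from library to library, are high in the 3 Commd10Null libraries of E8.5, and are lowest in Commd10Null E9.5 replicate 1, where *Sdhd* is at 0 CPM beside 72.8 and 107 CPM in the other two.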

How the data were processed

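The members, gene lists and rules were chosen with earlier results of these data known. Messenger RNA of 32 libraries was counted as 3′ tags (QuantSeq FWD, single-end). The authors deposited these as raw counts by Ensembl identifier in 1 table, without normalization. Per the labels and methods, reads were aligned with STAR to mm10, and the submitters' processing notes name Trimmomatic 0.35. The sources used here do not give the counting tool, its strand setting or its annotation. All 55414 identifiers entered the library sizes, 52133 of them with a symbol, and every value column was assigned to a sample. Gene positions come from GENCODE annotation of GRCm38. Total counts per library ran from 7025188 to 9069005.

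WT E8.5 libraries were taken by raw *Sox10* count under 10. Groups were compared with edgeR 4.0.16 in R 4.3.3 (quasi-likelihood test, TMM factors, filterByExpr with its minimum of 10 counts and total of 15), with Benjamini-Hochberg adjustment over all genes tested. DEGs had an adjusted p of 0.05 or less and changed by 1 or more on the log2 scale. CPM were scaled by TMM within an age. The stage score used log2 CPM with a prior count of 2. The stage axis compared the 9 WT E9.5 libraries with the 7 other WT E8.5 libraries. The score was compared by exact permutation (Python 3.11.15, scipy 1.17.1, matplotlib 3.10.9). Where a group held no count, 3 counts in the group gave the lower bound of the fold. All pairs of libraries within a group differed by more than sampling noise.

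Named genes were *Commd10* and *Sox10*, DEGs that passed against all 10 WT libraries in the same direction, lay beyond all 10 and reached a mean of 5 CPM (the 12 largest rises and falls that did not follow *Sox10*, and 5 each that did), up to 4 members of a list with the smallest p, and genes the study names. A few of these genes are not reported here. Others are said to be named after their values were seen. Alternatives were the Wald test of DESeq2 1.42.0, RLE factors, no factors, no filter, 50 counts in 3 libraries, leaving out the most abundant identifier or each library, all 13 E8.5 libraries in 1 model, a *Sox10* limit of 50, no minimum of the fold, other class limits and a replicate block. The test was checked with simulated counts of 12671 genes drawn from the means and sizes of the 6 libraries: 30 of 50 genes changed 2-fold, 44 of 50 changed 4-fold, 49 at 8-fold and 50 at 16-fold passed, as did 16 of 12471 unchanged genes.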

Additional observations from a re-analysis of the deposited data

Results flagged for a closer look

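Within the 10 WT E8.5 libraries, 1 library stood apart from the other 9 by Dixon's test in 16 of 97 measures. The limit of the test flags about 1 in 20 by chance only for normally distributed values. Many of these genes lie near 0 CPM with a skewed spread, so the 16 cannot be set against that share. WT replicate 10 was highest for *Ly6c1* (3.82 CPM), *Gzmd* (2.46), *S100a4* (3.33), *A2m* (14.7), *Cyp11a1* (3.82), *Tgm2* (26.5), *Tcf15* (32.9), *Anxa1* (0.25) and *Ctla2a* (17.6). WT replicate 3 was highest for *Nccrp1* (2.74 CPM) and *Lgals3* (7.497), and WT replicate 7 for *Sprr2h* (0.61) and *Prl8a2* (44.5). *Anxa8* stood apart in WT replicate 6 (0.14 CPM), *Lin28b* in WT replicate 2 (121) and *Gata4* in WT replicate 9 (54.0). Of these libraries, WT replicates 6 and 9 belong to the least advanced 3.

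For 15 genes every Commd10Null library lay beyond all WT libraries one way at E8.5 and the other way at a later age, and the difference between the ages was not tested. *Nr6a1* was lower at E8.5 and had log2 ratios of mean CPM, Commd10Null over WT, of 0.77 at E9.5 and 3.05 at E10.5. *Hba-a1* was higher at E8.5 and had ratios of −1.80 and −3.83, and *Hba-a2* of −2.02 and −4.26. Higher at E8.5 and lower at E10.5 were *Lgals9* (−1.97), *Mgp* (−2.65), *Tent5c* (−0.82), *Fgg* (−4.29), *Alas2* (−2.26), *Blvrb* (−1.46), *Lcp1* (−0.87), *Cd63* (−0.83) and *Acat1* (−1.19). *Fga* had no count in Commd10Null at E10.5 beside a mean of 5.73 CPM in WT. *Scd2* and *Hmga2* were lower at E8.5 and higher at E10.5, by 0.28 and 0.15.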

How the results depend on the processing

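Groups of 3 libraries limit the calls. Against the least advanced WT, leaving out 1 library gave 20 (without Commd10Null replicate 1) to 129 DEGs in place of 105, and a score difference of −0.22 to −0.03 in place of −0.11. The Wald test of DESeq2 gave 227 DEGs, no filter 316, a *Sox10* limit of 50 gave 206, and no minimum of the fold 161. DEGs shared with the comparison of all 10 WT libraries were 95, and 190, 245 and 199 under the first 3 of these settings, with 16 to 119 when 1 library was left out. Of the 105 DEGs, 104 stayed DEGs with DESeq2 and 70 in the model of all 13 libraries, and all 105 kept their sign under every alternative in which they were tested (87 under the stricter filter). Against all 10 WT libraries the 711 DEGs became 180 to 915 when 1 library was left out (180 without Commd10Null replicate 1, 392 without replicate 3) and 1876 with no minimum of the fold. At E9.5 the 2295 DEGs became 1337 with 50 counts in 3 libraries and 5068 with no minimum of the fold, and 2192 to 2812 when 1 library was left out. At E10.5 the 2071 became 1275, 5724 and 1835 to 2219. With class limits of 0.25 and 1 the DEGs that changed little with age, 22, became 13 and 49, and with a limit of 1 those that rose and fell with age became 16 and 17. For the single genes named, 1026 values under an alternative counted as the same, and 0 changed sign. For genes that did not follow *Sox10*, the same means on the same side of the threshold. Of their values 156 were no longer past it and 32 came past it. For genes that followed *Sox10*, it means a move of less than the SE, whatever the adjusted p. Of their values 41 moved by more, and calls they lost are not among the 156.

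No paired analysis was possible for the least advanced WT because these libraries (6, 8 and 9) and Commd10Null (1 to 3) share no replicate number. In the other comparisons same-numbered libraries share only a number, with correlations of their deviations that ran from −0.06 to 0.16 at E8.5, from −0.04 to 0.12 at E9.5 and from −0.09 to −0.0047 at E10.5. With a replicate block the DEGs against all WT libraries numbered 1191 on the first day, 568 on the next and 1933 on the last, and the shared DEGs 91.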

Other observations

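Gene groups not described above held few members past the threshold against the least advanced WT. Of 15 surface ectoderm and epithelium genes tested, 2 rose (*Anxa8* and *Lgals3*, which both entered the test through Commd10Null alone) and 0 fell, with a median log2 fold change of 0.35. Of 17 genes of the node, notochord and definitive endoderm, 1 rose (*Cldn6*) and 0 fell, with a median of 0.56, and of 21 BMP, activin and Nodal genes 1 rose (*Smad6*) and 0 fell, with a median of 0.49. Of 15 NF-kB subunits, inhibitors and targets 0 passed (2 at an unadjusted p of 0.05 or less, 0 with DESeq2), with a median of 0.30, and *Cxcl1*, *Ccl2* and *Il6* had no count in the 6 libraries. Of 16 genes of copper handling 0 passed (2 and 1), with a median of 0.26, and of 20 imprinted genes 0 passed (2 and 1), with a median of −0.08. Over all genes tested the unadjusted and DESeq2 shares were 15.7% and 4.14%.

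Genes near *Commd10* were examined after the values were seen. Of 59 genes tested within 10 Mb, *Commd10* itself included, 3 passed against the least advanced WT (5.08%, where 1.27% of all genes tested did). *Commd10* was already known to pass and the window is centred on it, so this share is no support for a change near the gene. The median of the 59 was 0.10, and 0.09 without *Commd10*. Besides *Commd10* the genes that passed were *Dcp2*, an mRNA decapping enzyme gene, and *Eno1b*, an enolase copy that may share reads with *Eno1*. *Dcp2* was at 52.0, 54.9 and 50.01 CPM in Commd10Null against 77.3, 98.7 and 82.5 CPM (log2 fold change −0.71, adjusted p = 0.0392). *Eno1b* was at 143, 165 and 125 CPM against 67.3, 52.5 and 89.8 CPM (log2 fold change 1.06, adjusted p = 0.0207). At E9.5 *Dcp2* was at −0.60 (adjusted p = 0.00954) and *Eno1b* at 0.01, and at E10.5 they were at 0.22 (adjusted p = 0.119) and 0.87. When 1 library was left out, *Dcp2* passed in 0 of 6 fits (adjusted p = 0.0511 to 0.16). *Eno1b* was lost without WT replicate 6 or 8 or Commd10Null replicate 1 (adjusted p = 0.0963, 0.071 and 0.108, over all alternatives 1.69e-09 to 0.108).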
